A study of Mus musculus with 225 samples.

Results

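The Meis and Pbx genes encode homeodomain proteins of the TALE class, which bind DNA together with Hox proteins. The 5 genes described here are Meis1, Meis2, Meis3, Pbx2 and Pbx3. They were chosen by name and make up 5 of the 23165 genes counted in single cells of the mouse forelimb. Pbx2 and Pbx3 are also among the 10948 genes of the normalized table, while the 3 Meis genes are not and are described by their reads. The remaining Pbx genes were not analysed here.

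The cells came from forelimbs of Hoxd11::GFP embryos at E12.5, heterozygous for a GFP insertion at Hoxd11 on a mixed C57Bl6CBAF1 background, so every cell of both tissues carried the altered Hoxd11 allele. Littermate limbs were pooled, the autopod (the future hand) and the zeugopod (the future forearm) were dissected, and the cells with the brightest GFP were sorted and captured on the Fluidigm C1 system. The sort therefore selected for cells in which Hoxd11 had been active, and proximal cells that never used it were not sampled. The question of the study was which combinations of Hox genes are used in individual limb cells. The authors left out 20 of 96 autopod cells and 6 zeugopod cells. The 76 retained autopod cells were sequenced as 59 in run NXT0072 and 17 in NXT0143, and the retained zeugopod cells as 58 in NXT0142 and 65 in NXT0143. A retained cell had a median of 3003660 reads on genes, with a range of 186271 to 9437447. Since no label ties a cell to an embryo, each tissue is a single pooled sample. Cells were not taken as replicates, no test was run between tissues, and each share is given with its exact (Clopper-Pearson) 95% binomial interval. The interval covers counting error over cells only and not differences between embryos. Reads were counted without molecular identifiers.

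The tissue labels were set beside 6 landmark genes. These were chosen with earlier results of these data known, so they are not an independent check of the dissection. Hoxd13, the most posterior Hoxd gene, had at least 5 reads in 65 of 76 autopod cells and a single zeugopod cell. Shox2, a homeobox gene, had them in 0 of 76 autopod cells and in 73 zeugopod cells (59.3%). In mean log2 level, Hoxd13, Hoxa13 and Msx1 were higher in the autopod by at least 1, and Shox2, Meox2 and Hoxa11 were lower by at least 1. Within NXT0143 the Hoxa11 difference was -0.97, under 1 in size. No retained cell reached the number of markers set for muscle, epithelium, endothelium or macrophages. Myod1 and Myog, which define muscle, had 5 reads in no cell, but Pax7 of the same list had them in 15 zeugopod cells. At least 1 marker of the epithelium, endothelium and macrophage lists was found in 17, 4 and 18 zeugopod cells. For muscle, epithelium, endothelium and macrophages the autopod counts were 2, 2, 1 and 3. The blood list could not be applied, since only Hba-x of its 4 genes was found by name.

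Hox proteins alone distinguish DNA sites poorly. Pbx proteins bind beside them and sharpen the choice of site, and Meis proteins join these complexes and hold Pbx proteins in the nucleus. In the limb bud Meis1 and Meis2 are known as genes of the proximal segment, where retinoic acid maintains them, whereas the posterior Hox genes pattern the segments distal to it. Pbx genes are used more broadly.

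The part of each gene that encodes the DNA-reading helix of the homeodomain follows, because it shows how near the members of a family are to each other and how far the Meis genes are from the Pbx genes. Each run is 72 coding bases of a principal GENCODE transcript, 5′ to 3′ on the gene's own strand, and the 12 bases in capitals are 4 codons at the core of that helix, within which the families also differ.
Meis1: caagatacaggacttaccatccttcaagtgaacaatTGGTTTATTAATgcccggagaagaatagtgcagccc
Meis2: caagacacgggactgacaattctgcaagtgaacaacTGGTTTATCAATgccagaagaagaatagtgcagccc
Meis3: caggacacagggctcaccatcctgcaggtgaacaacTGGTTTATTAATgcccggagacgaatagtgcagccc
Pbx2: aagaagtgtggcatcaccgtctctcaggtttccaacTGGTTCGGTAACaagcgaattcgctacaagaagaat
Pbx3: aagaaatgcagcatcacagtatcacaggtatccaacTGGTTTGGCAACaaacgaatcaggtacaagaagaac

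In GRCm38, the build of the files, every stretch is split by an intron. It lies at chr11:18885618-18905726 on the minus strand for Meis1, at chr2:115868770-115921709 on the minus strand for Meis2 and at chr7:16183830-16184071 on the plus strand for Meis3, in each case across exons 9 and 10. For Pbx2 it lies at chr17:34594691-34594845 on the plus strand and for Pbx3 at chr2:34178298-34204806 on the minus strand, both across exons 5 and 6. Position by position, Meis1 and Meis2 shared 62 of the 72 bases, and Pbx2 and Pbx3 shared 58. A Meis and a Pbx stretch shared only 30 to 37. Of the 12 bases in capitals, a pair within a family shared 10 to 12 and a Meis and a Pbx gene 7 to 9. Over the whole aligned coding sequence, Meis1 and Meis2 were identical at 76.6% of bases and Pbx2 and Pbx3 at 73.4%.

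This likeness did not extend to stretches as long as a read. Of all 75-base stretches in the transcripts of Meis2, Meis3 and Pbx3, 0 were shared with another gene, so uniquely mapped reads could not be split between family members. For Meis1, 16.1% of stretches were shared, all with the overlapping loci Gm37818 and Gm16140, and for Pbx2 4.26% were shared with its neighbour Gpsm3. Gpsm3 had 74 reads in all retained cells together. The library kit does not mark strand, so reads of Meis1 and of its antisense locus Gm16140 cannot be told apart where they overlap. The full genes lie at chr11:18879817-19018985 (Meis1, ENSMUSG00000020160), chr2:115863064-116065839 (Meis2, ENSMUSG00000027210), chr7:16175090-16186504 (Meis3, ENSMUSG00000041420), chr17:34591266-34597400 (Pbx2, ENSMUSG00000034673) and chr2:34171457-34373142 (Pbx3, ENSMUSG00000038718).

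The Meis genes were nearly silent in these sorted cells. A cell was counted as having a gene when it held at least 5 reads of it. By this rule Meis1, Meis2 and Meis3 were each absent from all 76 autopod cells, and a count of 0 in 76 allows a share of up to 3.95%, taken as 3 counts of the total (the exact upper bound is 4.74%). In the zeugopod, Meis2 was found in 6 cells (4.88%, interval 1.81 to 10.3), Meis1 in 3 (2.44%, interval 0.506 to 6.96) and Meis3 in 1 (0.813%, interval 0.0206 to 4.45). The exact autopod bound lies above the zeugopod shares of Meis1 and Meis3 and just under that of Meis2. Counts under the threshold were as rare. Meis2 had 1 to 4 reads in 3 autopod and 4 zeugopod cells, Meis1 in 2 and 3, and Meis3 in 1 and 2.

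The Pbx genes were found more often. Pbx2 was present in 26 of 76 autopod cells (34.2%, interval 23.7 to 46) and 28 zeugopod cells (22.8%, interval 15.7 to 31.2). Pbx3 was present in 7 autopod cells (9.21%, interval 3.78 to 18.1) and 16 zeugopod cells (13%, interval 7.62 to 20.3). The autopod share of Pbx2 was 11.4 percentage points higher with this rule, 13.2 with at least 10 reads and 18.3 with a normalized value of at least 5. That of Pbx3 differed by -3.80, -5.11 and -4.30 points under the same rules.

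**Figure D1:**
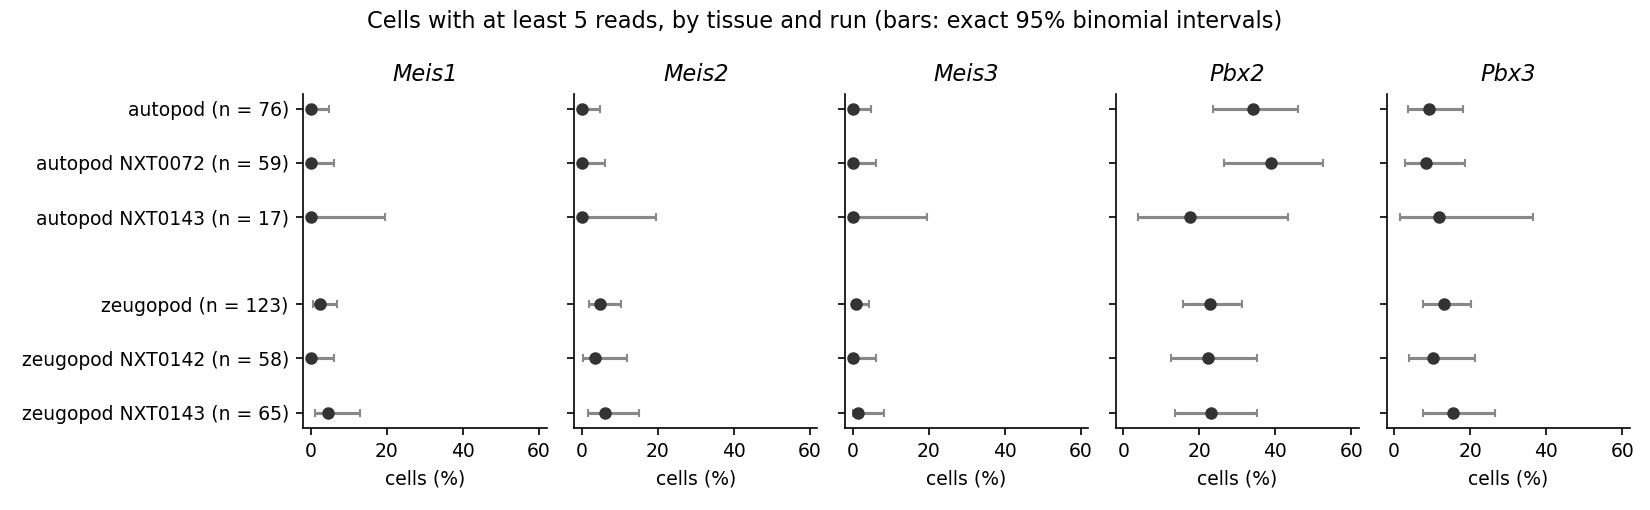
Share of cells, in percent, with at least 5 reads of each Meis and Pbx gene, in each tissue and in each sequencing run within it. Points are the observed shares and bars the exact 95% binomial intervals. Pbx2 sits between 17.6% and 39% in every set of cells, Pbx3 between 8.47% and 15.4%, and the Meis genes at or below 6.15%.

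Set against all 23165 genes, 33.9% were found in at least 10% of the autopod cells and 35.8% in at least 10% of the zeugopod cells. Of the 5 members, Pbx2 reached this level in both tissues and Pbx3 in the zeugopod. More widely found than Pbx2 were 10.7% of all genes in the autopod and 20.0% in the zeugopod. For Pbx3 these values were 33.9% and 31%. Meis2 was exceeded by 44.7% of all genes in the zeugopod, Meis1 by 51.5% and Meis3 by 59.6%, which places the Meis genes among the many transcripts seen in a few cells or none.

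The run did not leave these shares the same. Pbx2 was found in 23 of 59 autopod cells of NXT0072 (39%, interval 26.5 to 52.6) and in 3 of 17 autopod cells of NXT0143 (17.6%, interval 3.80 to 43.4). In the zeugopod it was found in 13 of 58 cells of NXT0142 (22.4%) and 15 of 65 cells of NXT0143 (23.1%). Within NXT0143, the only run that holds both tissues, the autopod share was thus the lower of the 2, the opposite of the order over all cells. For NXT0072 against NXT0142, tissue and run cannot be told apart. Pbx3 kept its order, with 2 of 17 autopod and 10 of 65 zeugopod cells in NXT0143 (11.8% and 15.4%) and 5 of 59 against 6 of 58 in the other runs (8.47% and 10.3%). All 3 zeugopod cells with Meis1 and the single cell with Meis3 came from NXT0143, as did 4 of the 6 cells with Meis2.

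Where a member was present, its level ranged widely. In the 26 autopod cells with Pbx2 the reads ran from 6 to 2860 with a median of 46.5, and in the 28 zeugopod cells from 5 to 814 with a median of 34.5. In the 7 autopod cells with Pbx3 they ran from 5 to 8222 with a median of 153, and in the 16 zeugopod cells from 23 to 1919 with a median of 244. The ranges of the tissues overlapped for both genes. Few cells held most of the reads. Autopod cell A_52 (8222 reads) and cell A_38 (5740 reads) were the highest for Pbx3, and the 3 highest autopod cells carried 98% of its autopod reads. For Pbx2 the 3 highest autopod cells carried 71.5%, led by cell A_35 with 2860 reads.

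**Figure D2:**
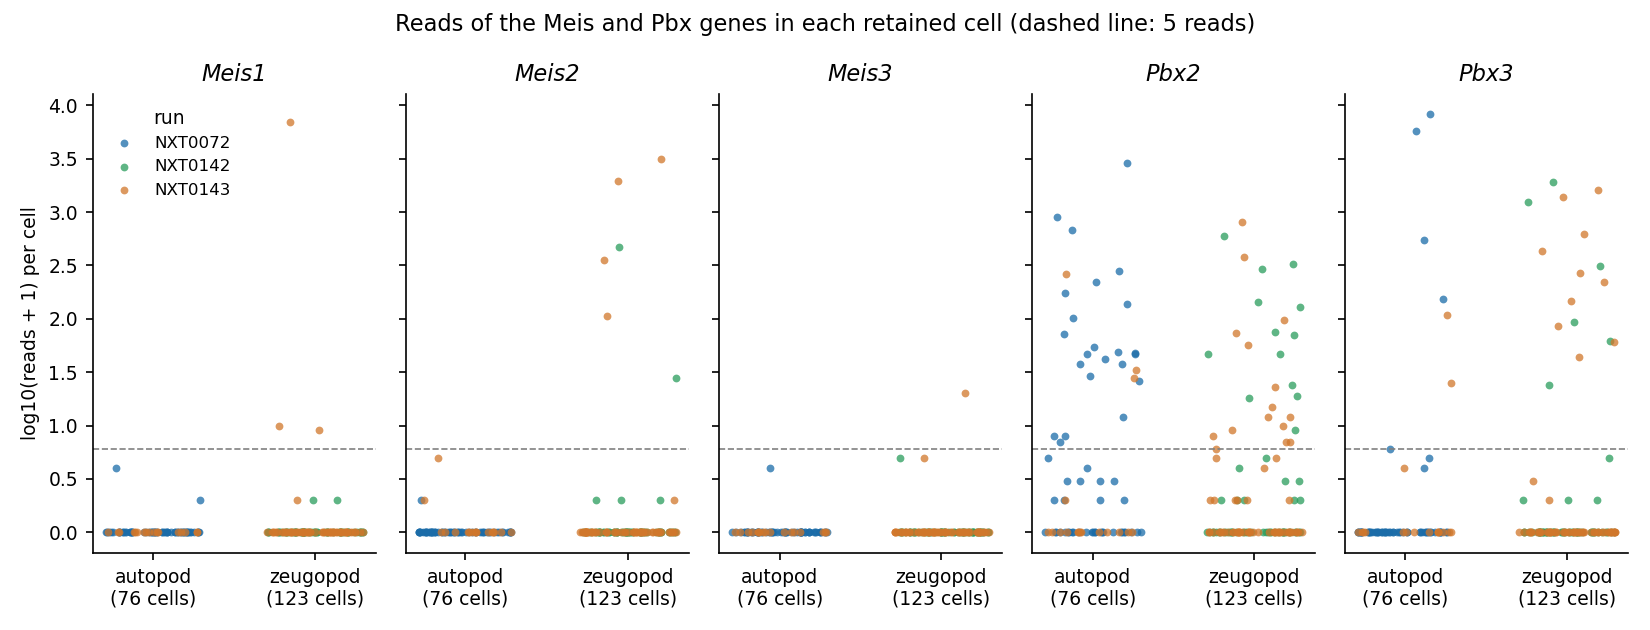
Reads of each Meis and Pbx gene in each retained cell, on a log10(reads + 1) axis, with autopod and zeugopod cells side by side and points coloured by sequencing run. The dashed line marks 5 reads. Most cells lie at 0 for every gene, and the cells above the line spread up to 8222 reads for Pbx3, 7012 for Meis1, 3126 for Meis2 and 2860 for Pbx2.

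The effect of these cells on a pooled level was large. Pooled over all cells of a tissue, in CPM (a gene's reads per 1000000 reads on all genes), Pbx2 stood at 25.5 among autopod and 8.42 among zeugopod cells, which is a ratio of 3.03. Without cell A_35 the ratio was 1.67. Pbx3 stood at 60.8 and 21.4 CPM, a ratio of 2.83, which was 1.29 without cell A_52. With the highest cell of each tissue left out, the ratio was 2.19 for Pbx2 and 1.65 for Pbx3. Pooled Pbx3 reads were thus higher in the autopod although its share of cells was lower there. Meis1 stood at 17.7 CPM in the zeugopod, but 99.7% of its reads came from cell Z_36, and without that cell the value was 0.0509. Meis2 stood at 15.3 CPM in the zeugopod and at 7.45 without the same cell.

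Per kilobase of exon, the order of pooled levels in the zeugopod was Pbx3 (3.51 CPM per kb), Pbx2 (2.31), Meis1 (1.68), Meis2 (1.27) and Meis3 (0.0214). In the autopod it was Pbx3 (9.95 CPM per kb) and Pbx2 (7.0), with the Meis genes at 0.00388 or less. Both orders rest on few cells. In the zeugopod the single highest cell held 22.6% of the Pbx3 reads, 24.4% of those of Pbx2, 99.7% of those of Meis1 and 51.6% of those of Meis2. In the autopod it held 55.5% of the Pbx3 and 46.1% of the Pbx2 reads, and with each gene's own highest cell left out Pbx3 stood at 4.54 and Pbx2 at 3.86 CPM per kb.

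A mean over cells on the log scale gives a single bright cell less weight. For the authors' normalized values, taken as log2(value + 1), Pbx2 averaged 2.02 for the autopod and 1.18 for the zeugopod, which differ by 0.85. A cell without Pbx2 reads sits at 0.37 on this scale, the lowest value of the gene in the table. Pbx3 averaged 0.72 and 0.92, a difference of -0.20. Neither passed the difference of 1 that was used as the call, and Pbx3 also did not pass the filter on genes found in at least 25% of the cells of a tissue. Among the 4898 genes that did, 6.06% were higher in the autopod by at least 1 and 13.4% lower, and the median difference was -0.12. By run, the Pbx2 difference was 0.29 within NXT0143, where the median gene stood at 0.18, but -0.03 on the log2(CPM + 1) scale, and 0.89 for NXT0072 against NXT0142, where the median gene stood at -0.34. Between the 2 autopod runs Pbx2 differed by 0.91 (NXT0072 minus NXT0143), which is larger than the difference between the tissues. On the log2(CPM + 1) scale the Meis genes differed by -0.11 (Meis1), -0.31 (Meis2) and -0.03 (Meis3), autopod minus zeugopod.

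The zeugopod cells with a Meis gene were few enough to describe singly. They are named here by the labels' own names. Meis2 stood at 793.6 CPM in cell Z_36, 693.0 in Z_42, 120.9 in Z_126, 117.6 in Z_41, 45.2 in Z_64 and 6.86 in Z_125, or between 3126 reads and 27. Meis1 had 7012 reads in cell Z_36, 9 in cell Z_42 and 8 in cell Z_33. Meis3 had 19 reads in cell Z_36 and 4 in cell Z_42. Cell Z_36 was therefore the highest of all retained cells for all 3 Meis genes, Z_42 was second for Meis1 and Meis2, and the Meis1 reads of Z_33 and Z_42 were close to the threshold.

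Cell Z_36 stood apart in its Hox genes. It had 0 reads of Hoxd9, Hoxd10, Hoxd11, Hoxd12, Hoxd13, Hoxa9, Hoxa11 and Hoxa13, with 53 reads of Hoxd8 and 14 of Hoxa10. It was 1 of 5 zeugopod cells without a read of any gene from Hoxd9 to Hoxd13, and the other 4 had no Meis gene. Although the sort was for GFP at the Hoxd11 locus, 25 zeugopod cells in all had fewer than 5 reads of Hoxd11. Its depth of 3939024 reads and 3691 detected genes was near that of the other zeugopod cells, whose median was 3995 detected genes. The cell carried 12184 reads of Meox2, 3201 of Shox2, 2844 of Sox9, 3869 of Tnc and 964 of Col2a1, so genes of skeletal and connective tissue were present. Whether it came from a more proximal position than the other cells was not tested.

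The other 5 cells with Meis2 all had Hoxd10, an abundant Hoxd gene of the zeugopod. Its reads were 7265 in cell Z_42, 1166 in cell Z_126, 969 in cell Z_125, 848 in cell Z_41 and 621 in cell Z_64. Hoxd11 had 1677 reads in cell Z_64, 939 in cell Z_126, 370 in cell Z_42, 27 in cell Z_125 and 4 in cell Z_41. High Meis2 and posterior Hoxd reads were thus found in the same cell, with cell Z_42 as the clearest case. None of the 6 cells had 5 reads of Hoxd9, Hoxd12, Hoxd13 or Hoxa13. For Hoxd9 the count among the other zeugopod cells was 35 (29.9%, interval 21.8 to 39.1), and 0 of 6 allows a share of up to 45.9% by the exact interval, which is above it. Hoxd10 was present in 5 of the 6 cells and in 57.3% of the others, Hoxa10 in 5 and in 86.3%, and Shox2 in 4 and in 69 others.

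**Figure D3:**
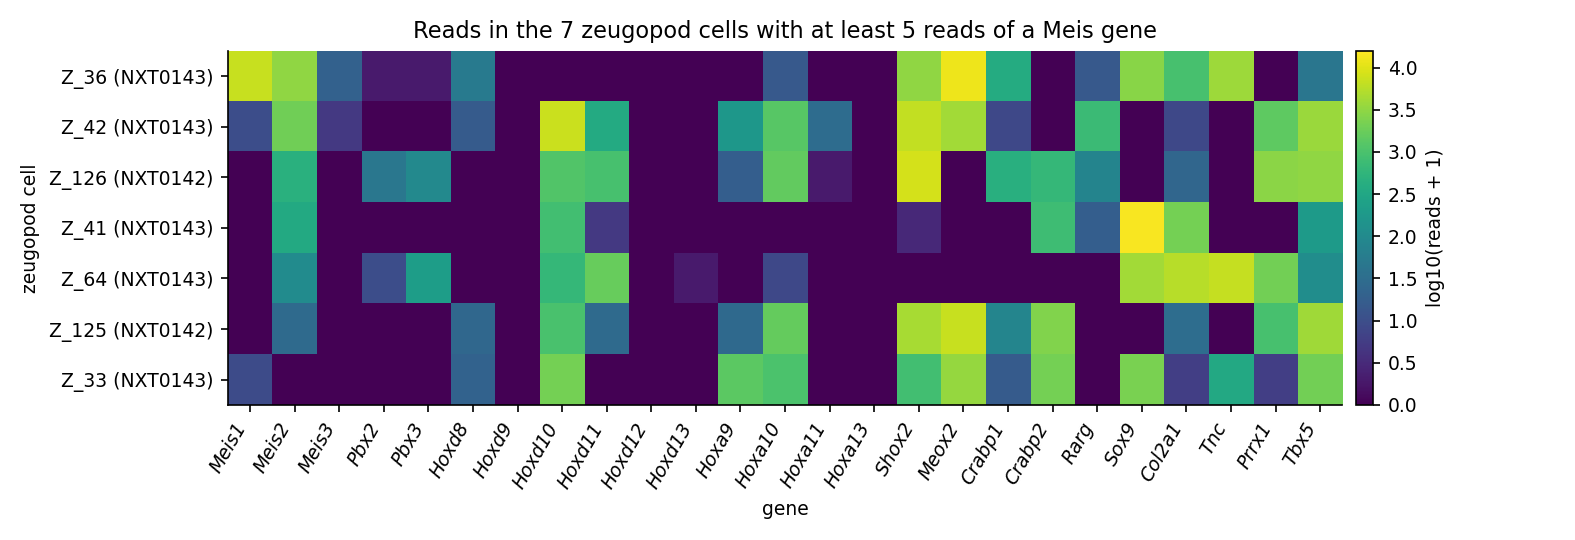
Reads, as log10(reads + 1) by colour, of the Meis, Pbx, Hox, retinoic acid and tissue marker genes in the 7 zeugopod cells with at least 5 reads of a Meis gene, ordered by their Meis2 reads. Cell Z_36 is dark across Hoxd9 to Hoxd13, while the 6 other cells have between 621 and 7265 reads of Hoxd10.

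Tissue genes did not tie these cells to a single type. Sox9, the regulator of cartilage condensation, had 14509 reads in Z_41, 4134 in Z_64 and 2844 in Z_36, but 0 in Z_42, Z_125 and Z_126. Prrx1, a gene of limb mesenchyme, had 2911 reads in cell Z_126 and 0 in Z_36 and Z_41. Tbx5, which marks the forelimb, was present in all 7 cells with 44 to 3980 reads. Retinoic acid genes varied as well. Crabp2, which encodes a retinoic acid binding protein, ranged from 0 to 2500 reads, Rarb had at most 1 read and Aldh1a2, the enzyme that makes retinoic acid, had 0 in all 7. Pbx2 and Pbx3 were present with Meis2 in Z_64 (9 and 218 reads) and Z_126 (46 and 93 reads), so a Meis and a Pbx gene were seen together in 2 of the 6 cells.

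Members were seldom found together. At least 1 of the 5 genes was present in 30 of 76 autopod and 43 zeugopod cells, and 2 or more in 3 (3.95%, interval 0.822 to 11.1) and 8 (6.5%, interval 2.85 to 12.4). Pbx2 and Pbx3 shared 3 autopod cells, where the product of their shares gives 2.39, and 6 zeugopod cells, where it gives 3.64. Meis1 and Meis2 shared 2 zeugopod cells, Z_36 and Z_42, where the product gives 0.146. These counts are too small to separate joint from independent use.

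The relation of the Pbx genes to Hox genes within cells was examined next. Cells of a tissue were split by each of a selected set of Hox genes, with at least 5 reads as the rule for both genes. In the autopod, Pbx2 was present in 25 of 65 cells with Hoxd13 (38.5%, interval 26.7 to 51.4) and in 1 of 11 cells without it (9.09%, interval 0.230 to 41.3). Cells with Hoxd13 also had more genes detected, with a median of 3805 against 2735, and the part of this difference in the result was not tested. By run, the counts were 23 of 54 against 0 of 5 in NXT0072 and 2 of 11 against 1 of 6 in NXT0143. Hoxa10, which was added after its values were seen, gave 23 of 53 cells with it (43.4%, interval 29.8 to 57.7) and 3 of 23 without (13%, interval 2.78 to 33.6), with medians of 3805 and 3133 genes. By run these were 21 of 44 against 2 of 15 in NXT0072 and 2 of 9 against 1 of 8 in NXT0143. The difference between cells with and without the gene was 29.4 percentage points for Hoxd13, 34.3 with Hoxd13 called by the rule of the study (described with the number of Hoxd genes) and 19.4 after thinning every cell to 500000 reads. For Hoxa10 it was 30.4, 33 and 22.2. These are descriptions of cells from 1 pooled sample, and none was tested.

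The other splits of the autopod were flatter at 5 reads. Pbx2 was present in 14 of 37 cells with Hoxd12 and 12 of 39 without, a difference of 7.07 percentage points that was 22.8 after thinning and 1.40 by the rule of the study. It was present in 24 of 67 with Hoxd11 and 2 of 9 without, and in 16 of 43 with Hoxd10 and 10 of 33 without. The Hoxd11 difference changed sign with the rule. It was 13.6 points at 5 reads, -5.44 by the rule of the study and -15.1 after thinning. For Hoxd10 these values were 6.91, -1.55 and 2.78. For Hoxa13, the distal Hoxa gene, the counts were 15 of 45 (33.3%) and 11 of 31 (35.5%). All 7 autopod cells with Pbx3 had Hoxd13 and Hoxd11, which 65 and 67 of the 76 cells also had. Pbx3 was present in 2 of 43 cells with Hoxd10 (4.65%) and 5 of 33 without (15.2%, interval 5.11 to 31.9).

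In the zeugopod none of Hoxd9, Hoxd10 and Hoxd11 separated the Pbx2 cells. Hoxd8 and Hoxa9, present in 68 and 48 zeugopod cells, were not used for a split. Hoxd9 and Hoxa11, present in fewer cells (35 and 34), were used. Pbx2 was present in 20 of 98 cells with Hoxd11 (20.4%, interval 12.9 to 29.7) and 8 of 25 without (32%, interval 14.9 to 53.5). The shares were 23.6% and 21.6% for Hoxd10, 22.9% and 22.7% for Hoxd9, and 20.6% and 23.6% for Hoxa11. Pbx3 was present in 2 of 34 cells with Hoxa11 (5.88%, interval 0.720 to 19.7) and 14 of 89 without (15.7%, interval 8.88 to 25). All 16 zeugopod cells with Pbx3 had Hoxa10, and 0 of the 17 cells without Hoxa10 had Pbx3, with an upper bound of 19.5%.

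**Figure D4:**
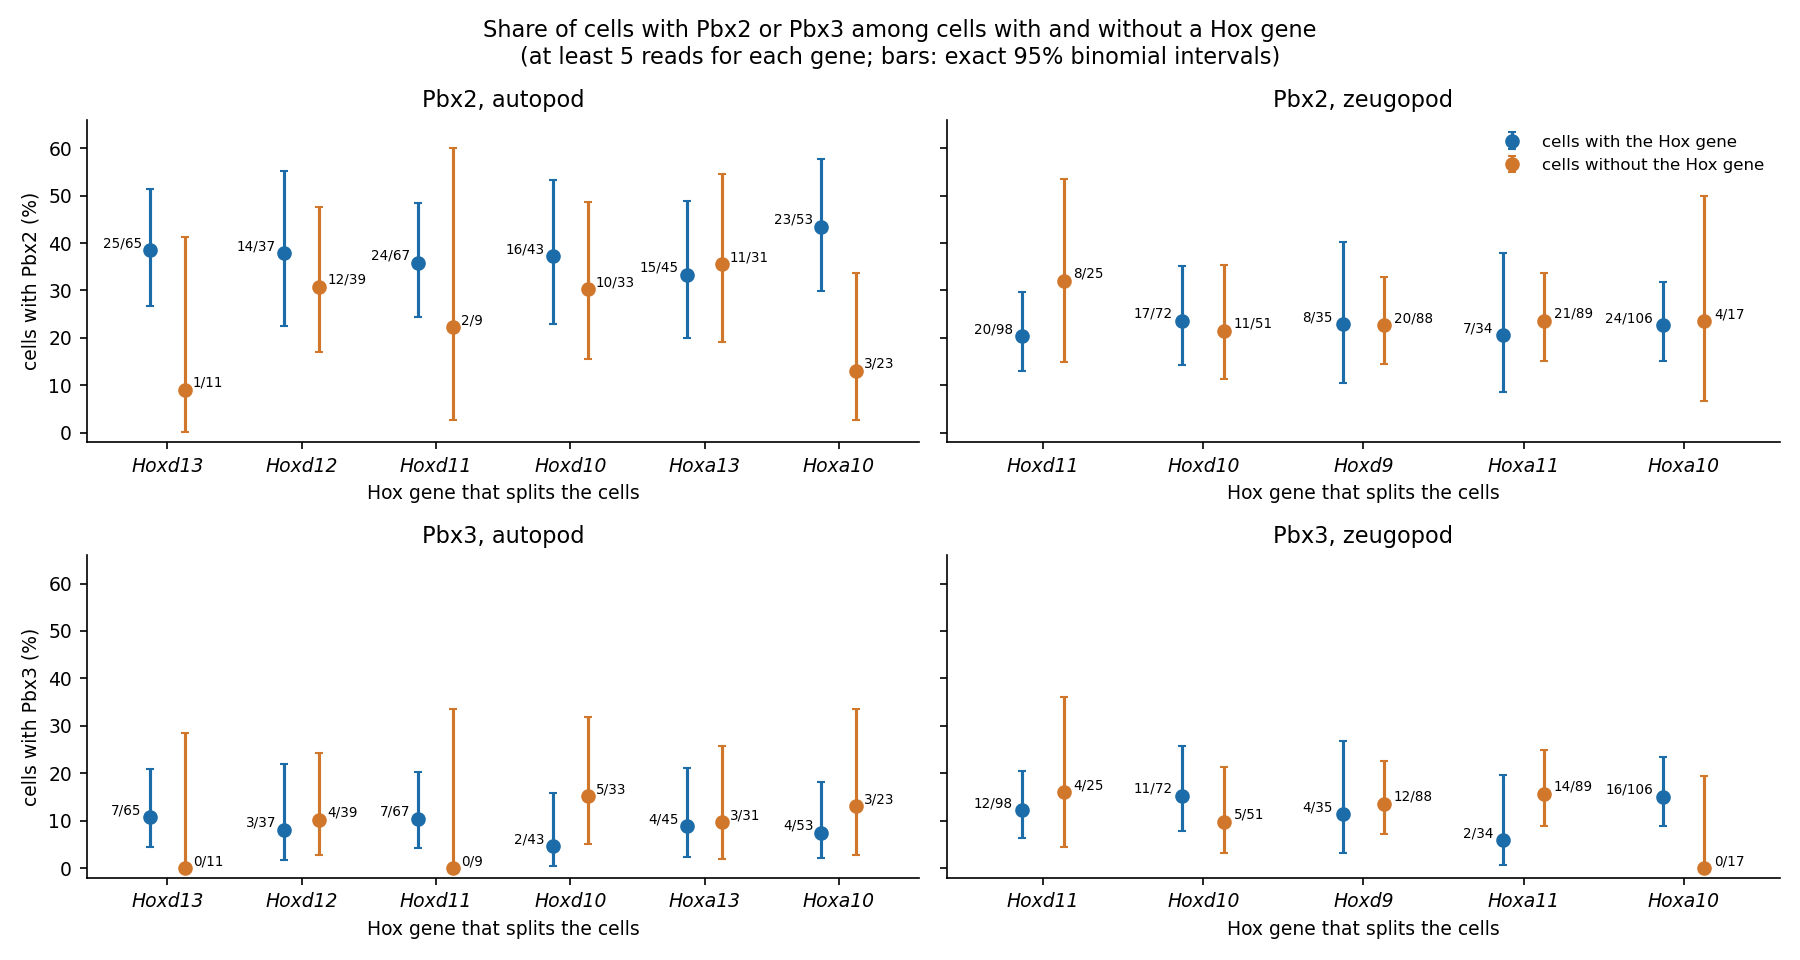
Share of cells, in percent, with at least 5 reads of Pbx2 (upper row) or Pbx3 (lower row) among cells with and without each Hox gene, for the autopod (left) and the zeugopod (right). Bars are exact 95% binomial intervals and the fractions give the cells counted. The widest gaps are those of Pbx2 by Hoxd13 and Hoxa10 in the autopod, and every pair of intervals overlaps. The bars belong to single shares and are not intervals of the difference.

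The number of Hoxd genes used by a cell was counted by the rule of the study. It calls a Hoxd gene on from a normalized value of 5 upward, if it reaches 5% of the highest Hoxd gene in the cell. Hoxd genes outside Hoxd9 to Hoxd13, such as Hoxd8, were counted as well. In the autopod, Pbx2 was present in 7 of 23 cells with 1 Hoxd gene on, 11 of 27 with 2, 2 of 14 with 3 and 5 of 9 with 4, and in 1 of the 3 cells with none on. The shares did not rise or fall steadily with the number. In the zeugopod the counts were 4 of 10 cells with 0 Hoxd genes on, 10 of 42 with 1, 9 of 42 with 2, 3 of 16 with 3 and 2 of 12 with 4. Of the 7 autopod cells with Pbx3, 6 were among the 27 cells with 2 Hoxd genes on. Meis2 was found in 4 of 42 zeugopod cells with 1 Hoxd gene on and 2 of 42 with 2. It was in none of the 10 cells with 0 on, the 16 with 3, the 12 with 4 or the 1 with 5. Cell Z_36, the highest for Meis2, was among those with 1 on only through Hoxd8, since it had 0 reads of Hoxd9 to Hoxd13.

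Levels were compared next. Rank correlations across the cells of a tissue are descriptions, since the cells share a dissection, a library preparation and a range of depths. Over 10 Hox genes, 2 Pbx genes and 2 tissues, only 2 of 40 values of Spearman's rho on the normalized scale exceeded 0.3 in size, those of Pbx2 in the autopod with Hoxa10 (0.431) and with Hoxd13 (0.411, n = 76 cells for each). The median rho of Hoxd13 with all genes that passed the filter was 0.193, and 5.15% of those genes had a rho at least as high as that of Pbx2. For Hoxa10 the median was 0.171, and 1.25% were at least as high. Within runs the value for Hoxd13 was 0.341 in NXT0072 (59 cells) and 0.174 in NXT0143 (17 cells), and that for Hoxa10 was 0.445 and 0.165. Of all genes, 28.7% and 51.1% were at least as high for Hoxd13 within these runs, and 3.17% and 40.7% for Hoxa10. On the CPM scale the values over all autopod cells were 0.279 for Hoxd13, below 0.3, and 0.342 for Hoxa10. Given the number of genes detected, the partial values were 0.371 for Hoxd13 and 0.395 for Hoxa10.

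The remaining Hox genes showed little. Pbx2 in the autopod had a rho of 0.123 with Hoxd11, 0.152 with Hoxd12 and -0.178 with Hoxd9, which only 6 autopod cells carried. In the zeugopod the values of Pbx2 ran from -0.140 with Hoxd8 to 0.207 with Hoxd13, and the latter gene reached 5 reads in only 1 zeugopod cell. Pbx3 ran from -0.142 with Hoxd10 to 0.118 with Hoxd11 in the autopod and from -0.0992 with Hoxa13 to 0.175 with Hoxd10 in the zeugopod. The value of Pbx3 with Hoxd10 was 0.398 in NXT0142 and 0.0353 in NXT0143, so it was not shared by the runs.

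**Figure D5:**
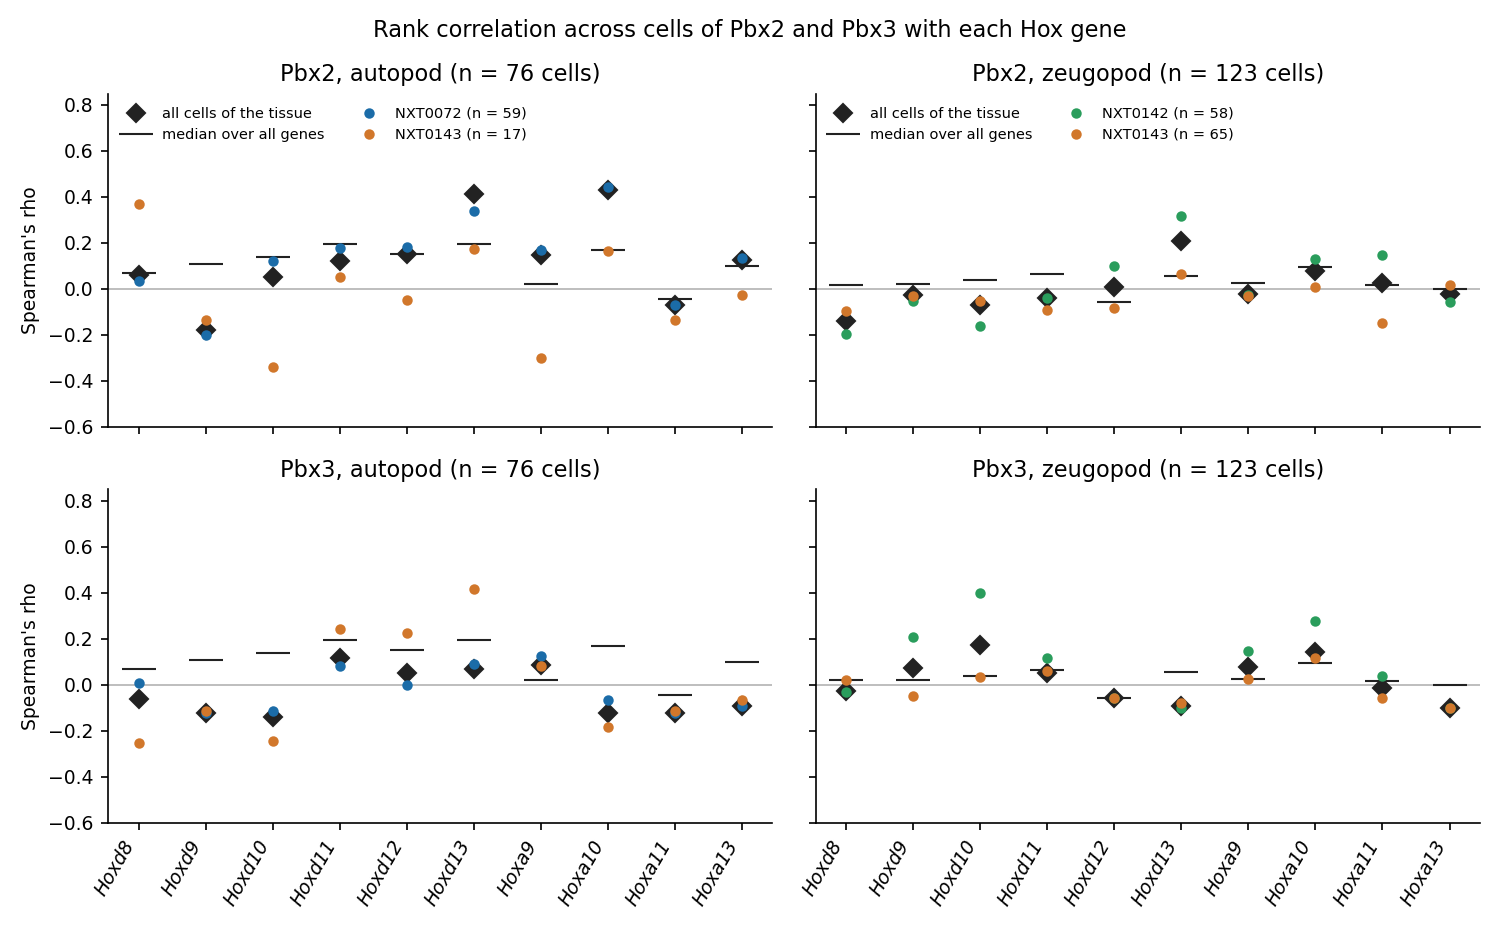
Spearman's rho of Pbx2 (upper row) and Pbx3 (lower row) with 10 Hox genes across autopod (left) and zeugopod (right) cells. Diamonds are all cells of a tissue, coloured points are the runs within it, and horizontal ticks are the median rho of that Hox gene with all genes that passed the filter. Only Pbx2 with Hoxd13 and Hoxa10 in the autopod lies above 0.3 over all cells, and the points of the 17 autopod cells of NXT0143 scatter most.

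The genes most like Pbx2 were not Hox genes. The likeness was the mean of the rho values of the 2 runs of a tissue, over 4031 genes in the autopod and 4304 in the zeugopod. In the autopod B020018G12Rik (0.541), Rpp30 (0.519) and Fibp (0.518) were highest and Zfp410 (-0.355) lowest, with a median gene at 0.116. The runs differed for these genes, as for Rpp30 with 0.186 in NXT0072 and 0.852 in the 17 cells of NXT0143. In the zeugopod Kif20b (0.390), Rabgap1 (0.383) and Terf1 (0.369) were most like Pbx2 and Mllt4 (-0.232) least. For Pbx3 in the zeugopod they were Lrrc59 (0.382), Tma16 (0.366) and Anapc16 (0.363), and Zfp286 (-0.245) was least alike. Values of this size were the extremes of a long list in sparse counts and are given without a test.

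By cell class, the intervals of the Pbx2 shares overlapped in each comparison given here. A cell was called chondrogenic-like with at least 5 reads of 3 of the 5 markers Sox9, Col2a1, Acan, Col9a1 and Matn1. In the zeugopod Pbx2 was present in 13 of 38 such cells (34.2%, interval 19.6 to 51.4) and 15 of 85 others (17.6%, interval 10.2 to 27.4), and in the autopod in 10 of 35 (28.6%, interval 14.6 to 46.3) and 16 of 41 (39%, interval 24.2 to 55.5). The order of the 2 shares was thus opposite in the tissues. Among the 17 tendon-like zeugopod cells, called from Scx, Tnmd and Tnc, 2 had Pbx2 and 0 had Pbx3. Among the 17 interdigit-like autopod cells, called from Aldh1a2, Msx2 and Bmp7, 8 had Pbx2 (47.1%, interval 23 to 72.2) against 18 of 59 others (30.5%), and their median of 4504 detected genes was higher than the 3414 of the others.

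The related TALE genes give a scale for the members. Pknox1, a relative of the Meis genes that also binds Pbx proteins, was found in 18 of 76 autopod cells (23.7%) and 27 zeugopod cells (22%). Tgif1, a TALE repressor, was found in 41 (53.9%, interval 42.1 to 65.5) and 43 (35%, interval 26.6 to 44.1). Pknox2 and Tgif2 were found in 3 and 2 autopod cells and in 11 and 3 zeugopod cells. Of the 3 genes of this list in the normalized table, 1 was higher in the autopod by at least 1 (Tgif1, difference 1.09) and 0 were lower, with a median of -0.13, beside 6.06% and 13.4% of all genes that passed the filter. Pknox1 and Pknox2 did not pass it. Over all genes of the normalized table, 2.83% were higher in the autopod by at least 1 and 6.26% lower. Within NXT0143 the Tgif1 difference was 0.28, and for NXT0072 against NXT0142 it was 1.02. Tgif1 was the most widely found of the 9 TALE genes examined, in both tissues.

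The genes of the retinoic acid pathway, which maintains Meis genes in the proximal limb, moved in both directions. Of 10 genes, 3 were higher in the autopod by at least 1 and 1 was lower, with a median of 0.05. Of the genes that passed the filter, 6.06% were higher and 13.4% lower. Over all genes of the normalized table, which holds all 10, the shares were 2.83% and 6.26%. Rarg, a retinoic acid receptor, was higher by 2.02 and found in 58 of 76 autopod cells (76.3%) against 52 zeugopod cells (42.3%). Aldh1a2, which did not pass the filter of 25% of cells, was higher by 1.90 and found in 17 against 5 cells (22.4% and 4.07%). Cyp26b1, which degrades retinoic acid, was higher by 1.22 and found in 30 against 24 cells (39.5% and 19.5%). Crabp1, a retinoic acid binding protein, had a difference of -2.86 and was found in 16 autopod and 63 zeugopod cells (21.1% and 51.2%). Cyp26b1 and Crabp1 passed the filter only through the tissue in which they were higher. The other receptors Rara, Rarb, Rxra and Rxrb, which also did not pass the filter, differed by -0.20, 0.30, 0.13 and -0.39. Crabp2 differed by -0.99, and by -1.06 on the log2(CPM + 1) scale.

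The run bears on these values. Within NXT0143 the difference was 0.57 for Rarg and 0.29 for Cyp26b1, both under 1, while it was 2.65 for Aldh1a2, 1.63 for Rarb, 0.09 for Crabp2 and -3.37 for Crabp1. For NXT0072 against NXT0142, where tissue and run cannot be told apart, it was 2.37 for Rarg, 1.47 for Cyp26b1, 1.69 for Aldh1a2, -0.11 for Rarb, -1.98 for Crabp2 and -2.94 for Crabp1. The higher Aldh1a2 and lower Crabp1 levels of the autopod were therefore seen in both comparisons of runs at a size of at least 1, and the differences of Rarg, Cyp26b1, Rarb and Crabp2 reached 1 in only 1 of them.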

How the data were processed

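Single polyA transcriptomes were made with the SMARTer v2 and Nextera XT kits. Per the authors, 75-base reads were mapped uniquely to mm10 with Bowtie2 and counted over GRCm38 Ensembl genes. The deposited counts hold 225 cells; the 92 spike-in rows were used only to check the scaling. The deposited normalized signal holds 199 cells and, per the authors, was scaled by spike-ins and gene length. Its values matched (reads / factor + 1) / length, with a quartile spread of the factor of at most 1.61% within a cell, but the factors had a rho of only -0.224, 0.0883 and 0.124 with the deposited spike-in reads in the 3 runs, so this scaling could not be traced to those rows and CPM was run beside it. Meis1, Meis2 and Meis3 are not in that table, so CPM replaced the planned signal for them. The members and gene lists were chosen with earlier results of these data known. A gene was counted as present at 5 reads or more. Genes found in at least 25% of the cells of a tissue formed the background, and a difference of 1 in mean log2(value + 1) was called. Named genes were the members, the Hox and list genes, and for likeness the 3 highest and the lowest by mean within-run rho, for members found in at least 10% of cells. The values of 1 listed gene are not reported here. Thinning used 500000 reads and seed 42. The functions were tested on simulated data. Gene models were GENCODE M21. Python 3, numpy and scipy were used.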

Additional observations from a re-analysis of the deposited data

How the results depend on the processing

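No paired analysis was possible because each tissue is a single pooled sample and the cell numbers pair nothing. Across 78 results, 303 of 323 alternative values stayed within the interval of the main share, within a factor of 1.5 for levels, or within 0.2 for rho. This count is not a measure of stability, since many intervals were wide and a value could change sign within them. The Pbx2 difference by Hoxd11 in the autopod was 13.6 points (interval -20.5 to 33.5), but -5.44 by the rule of the study and -15.1 after thinning. Within NXT0143 the difference in Pbx2 share (autopod minus zeugopod) was -5.43 percentage points against 11.4 over all cells, and the rho of Pbx2 in the autopod was 0.174 with Hoxd13 and 0.165 with Hoxa10. Pbx2 passed the call of 1 with a pseudocount of 0.1 (1.09). With 1 read as the rule, 11.8% of autopod and 13.8% of zeugopod cells had 2 or more members. The pooled CPM ratio was an alternative chosen after seeing the data. Without the autopod cell with most reads it was 1.67 for Pbx2 and 1.29 for Pbx3. Without the top cell of each tissue it was 2.19 for Pbx2 and 1.65 for Pbx3, and only the former stayed within the factor of 1.5. Of all called genes, 31.2% were higher in the autopod, 21.4% on the CPM scale and 66.6% within NXT0143. In each case the cause was not tested. Cells without a read of a member could not be told from cells whose transcript was missed.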

Other observations

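The 26 captured cells that the authors left out add little. The 20 autopod cells held 12 reads of Pbx2, with 5 or more in 1 cell, and 2 reads of Pbx3. The 6 zeugopod cells held 0 reads of all 5 members. No Meis read was found in any of the 26.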
